A study of Homo sapiens with 18 samples.

Results

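The 9 genes for surface markers and adhesion molecules of blood stem and progenitor cells, CD34, SELPLG, CD44, PROM1, THY1, ITGA4, ITGA6, ITGB1 and CXCR4, were examined for binding of the fusion protein AML1-ETO. A peak was counted for a gene when at least 1 bp of it lay in the RefSeq gene body or within 10 kb of either end. These are 9 of the 19974 protein-coding genes on chromosomes 1 to 22 and X. They were chosen by name, with earlier results of these data known. Called peaks were found at 5 of them: CD34, SELPLG, ITGA4, ITGA6 and ITGB1. CD44, PROM1, THY1 and CXCR4 held 0 peaks in each of the 9 deposited lists.

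The peaks came from CUT&RUN, a method in which a nuclease tethered to an antibody cuts out the bound DNA for sequencing. The cells were Kasumi-1, an established acute myeloid leukaemia line with the t(8;21) translocation that joins RUNX1 (AML1) to RUNX1T1 (ETO), carrying AML1-ETO with a Flag tag in all groups. They were transduced either as control or for knockdown (KD) of the microRNA miR-130a, and GFP-positive cells were sorted 3 days later. Anti-ETO, anti-Flag or mouse IgG was used in each condition with 3 libraries a group, 18 libraries in all. How the tag was introduced, whether the line was 1 clone, and what the control construct was are not given in the sources used here. Expression was not measured, so the presence of these proteins on the cells was not checked.

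AML1-ETO keeps the DNA-binding Runt domain of RUNX1 and carries the part of ETO that recruits corepressors, and it is best known for holding back genes of myeloid maturation. CD34 is a sialomucin that marks stem and progenitor cells, PROM1 (CD133) is a membrane protein of primitive progenitors and THY1 (CD90) marks the most primitive fraction. SELPLG encodes PSGL-1, the ligand of P-selectin, and CD44 is the receptor for hyaluronan. ITGA4 and ITGB1 pair as the integrin VLA-4, which binds VCAM-1 and fibronectin. ITGA6 pairs with ITGB1 as a laminin receptor, and CXCR4 is the receptor for CXCL12, which holds stem cells in the marrow.

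The values are peak positions in 4 lists of single antibodies, 1 per antibody and condition, and in lists the authors derived from them. Each dual-antibody interval overlaps a peak of both antibodies in its condition, and the shared, control-unique and KD-unique lists compare the dual-antibody peaks of the 2 conditions. The labels do not say whether the 3 libraries of a group came from separate cultures. Single lists held 14264 to 25961 peaks, and the anti-ETO list was longer in KD (22594) than in control (14264). The anti-Flag list was longer in KD too (25961 against 23162), with a smaller median peak width (364 against 416 bp). In total it covered 13.2 Mb in KD and 13.5 Mb in control. The lists carry positions alone. The depth behind a call, the spread over the 3 libraries and the IgG background are therefore unknown, no test between conditions was possible, and all comparisons below are descriptions of 1 list against another.

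The sequences that the integrin results turn on are the RefSeq promoter windows of ITGA4, ITGA6 and ITGB1, 250 bases before to 50 after an annotated start (GRCh38.p14, printed 5′ to 3′ on the gene's strand). Capitals mark bases that lay under a dual-antibody peak in control and under none after knockdown. Promoter windows were matched for 7 of the 9 genes.
ITGA4 (chr2:181457136-181457435, plus strand): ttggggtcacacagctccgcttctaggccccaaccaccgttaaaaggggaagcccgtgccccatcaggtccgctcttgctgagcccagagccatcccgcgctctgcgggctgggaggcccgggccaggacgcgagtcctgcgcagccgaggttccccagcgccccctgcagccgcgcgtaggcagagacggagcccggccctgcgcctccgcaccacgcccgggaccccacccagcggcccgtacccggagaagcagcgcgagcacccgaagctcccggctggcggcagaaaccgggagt
ITGA6, first start (chr2:172427086-172427385, plus strand): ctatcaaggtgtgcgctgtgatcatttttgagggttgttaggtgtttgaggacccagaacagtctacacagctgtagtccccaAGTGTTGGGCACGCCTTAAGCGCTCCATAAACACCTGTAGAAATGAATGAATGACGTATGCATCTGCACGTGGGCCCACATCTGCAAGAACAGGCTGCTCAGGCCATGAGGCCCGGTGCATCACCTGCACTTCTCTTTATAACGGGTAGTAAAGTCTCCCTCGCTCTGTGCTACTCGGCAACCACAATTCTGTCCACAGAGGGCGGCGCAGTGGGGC
ITGA6, second start (chr2:172427336-172427635, plus strand): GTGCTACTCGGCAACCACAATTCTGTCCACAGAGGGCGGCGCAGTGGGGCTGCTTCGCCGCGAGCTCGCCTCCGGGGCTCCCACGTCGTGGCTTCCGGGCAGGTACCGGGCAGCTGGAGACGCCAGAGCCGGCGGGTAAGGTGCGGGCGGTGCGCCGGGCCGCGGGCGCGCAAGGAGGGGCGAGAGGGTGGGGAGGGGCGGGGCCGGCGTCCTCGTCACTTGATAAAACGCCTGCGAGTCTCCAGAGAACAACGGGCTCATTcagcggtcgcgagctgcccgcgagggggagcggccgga
ITGB1, first start (chr10:32958181-32958480, minus strand): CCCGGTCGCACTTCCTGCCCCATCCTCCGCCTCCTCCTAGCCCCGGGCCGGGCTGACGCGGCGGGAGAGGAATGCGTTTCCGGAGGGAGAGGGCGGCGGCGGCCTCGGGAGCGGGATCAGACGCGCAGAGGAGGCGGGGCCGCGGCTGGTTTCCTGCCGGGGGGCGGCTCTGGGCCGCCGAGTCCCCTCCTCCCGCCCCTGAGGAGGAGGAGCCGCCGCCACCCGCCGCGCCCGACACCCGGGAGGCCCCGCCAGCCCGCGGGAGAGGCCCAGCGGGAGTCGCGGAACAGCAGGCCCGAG
No base of the ITGA4 window was in this state, against 217 and 262 bases of the ITGA6 windows and all 300 of the ITGB1 window. At these genes a dual-antibody interval spans the joined length of its overlapping peaks, so a base in it need not lie under both antibodies. After knockdown, anti-Flag covered only 77 of the 300 ITGA4 bases, and anti-ETO still covered all 300 of the ITGB1 window. The marking therefore does not separate ITGA4 from ITGB1 for each antibody. ITGA6 and ITGB1 stand in the authors' shared list nevertheless, as ITGA4 does, so that list does not show the change at the ITGA6 and ITGB1 promoter windows.

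The gene group as a whole was occupied about as often as other genes. A control anti-ETO peak was found at 5 of the 9 genes, where 47.6% of all protein-coding genes had one, and a control anti-Flag peak at the same number, against 50.2%. After knockdown an anti-ETO peak was found at 5 genes (background 53.8%) and an anti-Flag peak at 4 (42.2%). Dual-antibody peaks lay at 5 genes in control (43.8%) and at 4 after knockdown (39.4%). Shared peaks were found at 4 genes (35.1%), control-unique peaks at 2 (16.9%) and KD-unique peaks at 0 (18.4%). A peak in all 4 single-antibody lists was present at 4 genes, against 37.3%, and a control-unique but no KD-unique peak at 2, against 12.5%. With 9 genes these shares lie near the background and do not set the group apart. The median number of peaks per gene was 1 for control anti-ETO and 2 for control anti-Flag, against 0 and 1 over all protein-coding genes. After knockdown the medians were 1 and 0, the same as over all genes.

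**Figure D1:**
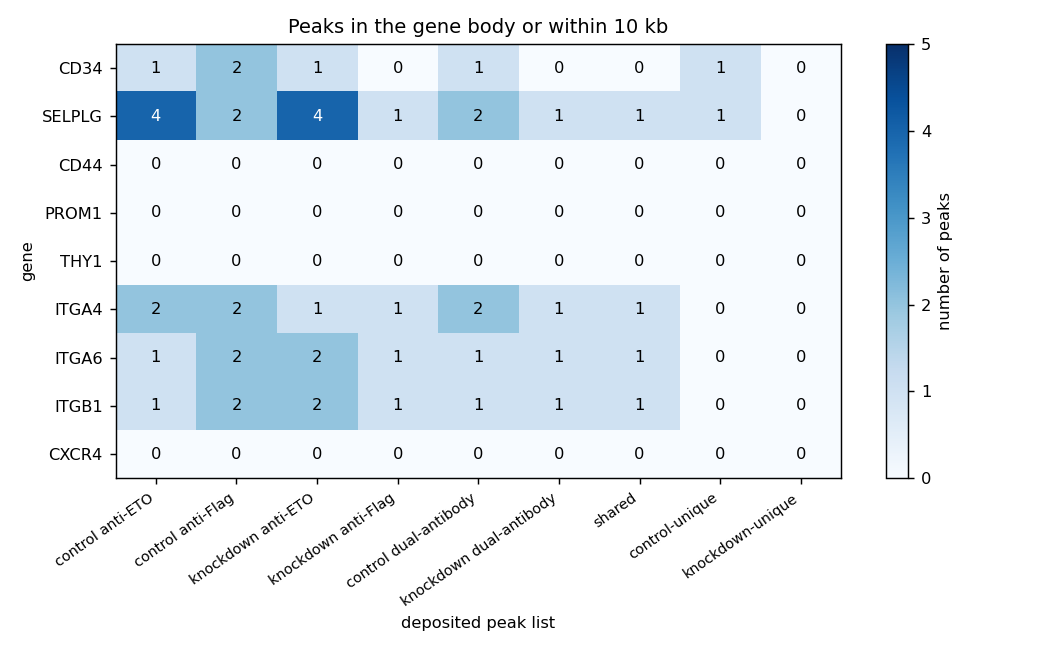
Number of peaks in the body or within 10 kb of each gene (rows) in each of the 9 deposited lists (columns), with the colour scale giving the same number. CD34 and SELPLG each have 1 control-unique peak, ITGA4, ITGA6, ITGB1 and SELPLG each have 1 shared peak, and 4 genes have 0 in every list.

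With the 10-kb flank and uncut lists, CD34 was the gene with a control dual-antibody peak and none after knockdown. Without a flank SELPLG was such a gene too, and with the wider 50% of each list ITGA6 and ITGB1 were, while CD34 had none in either condition. Its body spans chr1:207880972-207911125 on the minus strand, 30.2 kb in length, and all of its peaks lay deep in the body, about 20 kb from the first base of the gene. Control anti-ETO called 1 peak (chr1:207890532-207890977, 446 bp) and control anti-Flag called 2, one over the same site (chr1:207890520-207891167, 648 bp) and one 400 bp wide beside it (chr1:207889927-207890326). After knockdown, anti-ETO called the same site again (chr1:207890532-207890895, 364 bp), with the same lower-coordinate edge and with 100% of its length inside the control peak. Anti-Flag called none.

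The control-unique interval at CD34 is the 648-bp dual-antibody interval, so one antibody of the pair still called this site after knockdown. Genes that had dual-antibody peaks within 10 kb in control only made up 7.66% of all protein-coding genes, and 6.45% had peaks in every single-antibody list except knockdown anti-Flag. By width, 47.6% of control anti-ETO peaks and 33.7% of knockdown anti-ETO peaks were narrower than the CD34 calls of those lists. The control anti-Flag call over the same site was wider than 72.5% of its list, and the one beside it than 47.0%. The control-unique interval was wider than 76.1% of its list. The knockdown anti-ETO call at CD34 was lost with the 4 lists cut by width to 14264 peaks each, and with the wider 50% of each list the control anti-ETO call and the control dual-antibody interval were lost as well. No list placed a peak on the CD34 promoter window (chr1:207911076-207911375). The gene table gives gene bodies without exons, so the site is placed in the CD34 body and not in an exon or intron.

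SELPLG held several separate sites, with 1 shared and 1 control-unique interval. Its body spans chr12:108621895-108633894, 12.0 kb in length. No strand was matched for it, so its distances are given from the end with the higher coordinate. Control anti-ETO called 4 peaks and control anti-Flag 2, while after knockdown anti-ETO called 4 and anti-Flag 1. These fell into 6 separate regions, of which 1 was called in all 4 lists.

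That region lay outside the SELPLG body, beyond its higher-coordinate end, over the microRNA gene MIR4496 and the long noncoding RNA LOC105369968. Its anti-ETO peak was 678 bp wide in control (chr12:108635328-108636005) and 714 bp after knockdown (chr12:108635346-108636059), which shared 660 bp. Its anti-Flag peak was 704 bp wide in control and 593 bp after knockdown, sharing 417 bp. The occupied site was thus close to the same for anti-ETO and moved outward by 232 bp, centre to centre, for anti-Flag. LOC105369968 also overlaps the SELPLG body, so peaks there cannot be assigned to one of them.

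The control-unique peak of SELPLG lay inside the body (chr12:108630784-108631166, 383 bp), where anti-ETO called 382 bp and anti-Flag 302 bp in control. Unlike the CD34 site, this one had no call by either antibody after knockdown. Knockdown anti-ETO instead called 365 bp at another place in the body (chr12:108631997-108632361) that no other list held. At the end of the body, anti-ETO alone called 342 bp in control and 307 bp after knockdown, with 280 bp in common. The 2 remaining regions lay in the flank on the far side, one with a control anti-ETO peak of 179 bp, among the narrowest of its list (1.65% were narrower), and one with a knockdown anti-ETO peak of 402 bp.

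**Figure D2:**
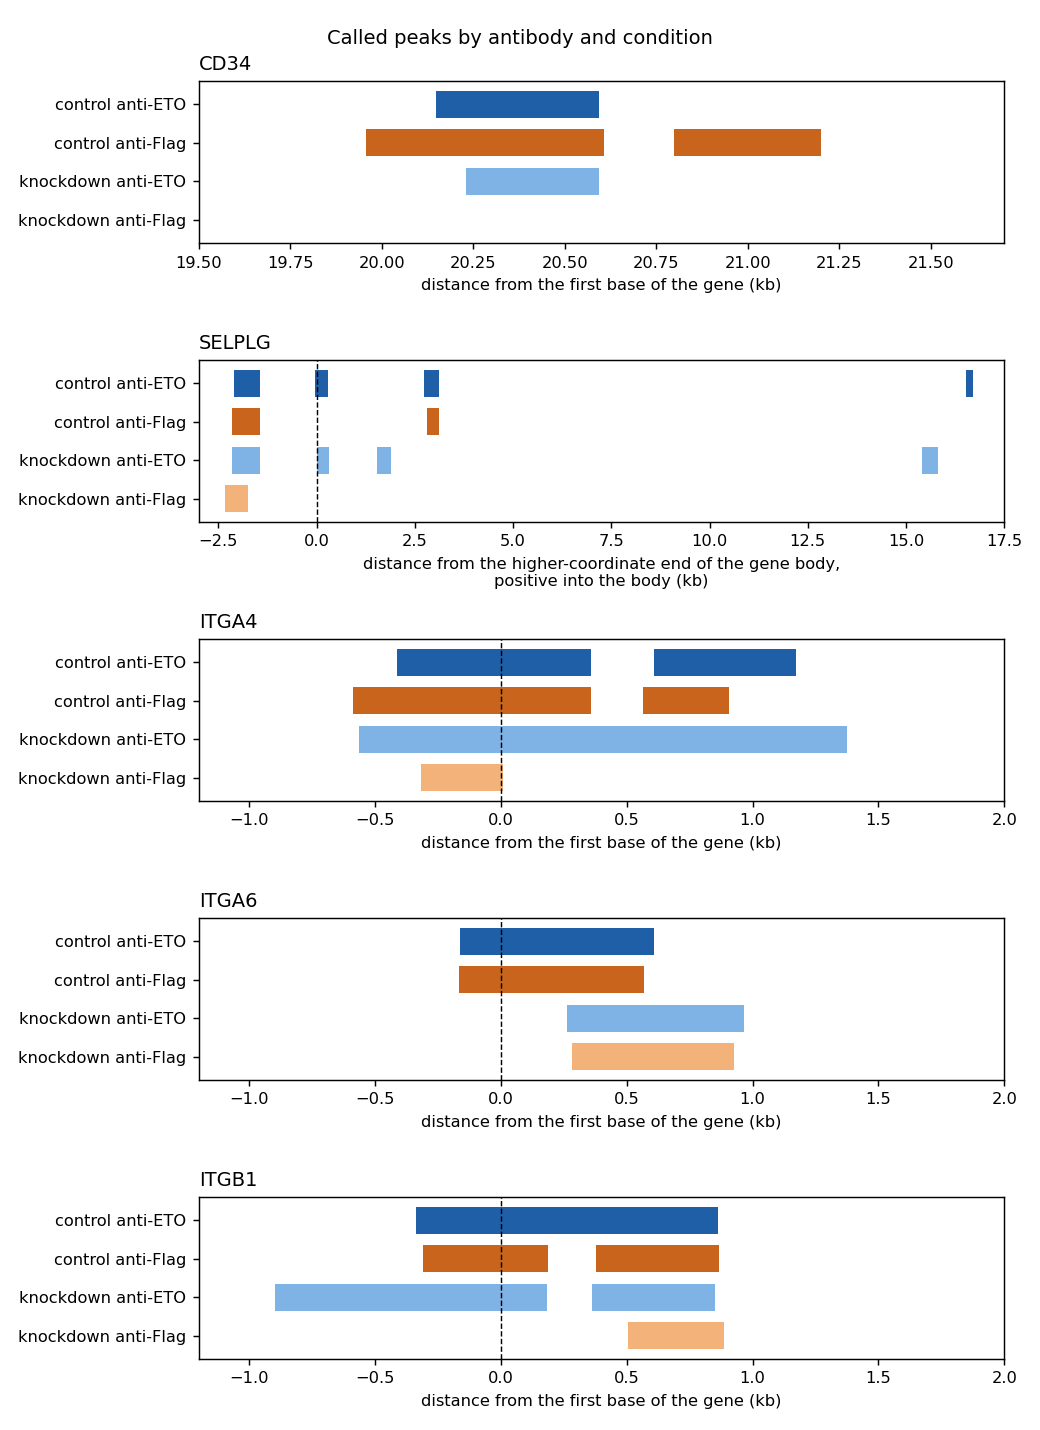
Called peaks (bars) at the 5 genes with a peak, 1 row per antibody and condition, against the distance in kb from the first base of the gene (dashed line, outside the CD34 panel), or for SELPLG from the end of the body with the higher coordinate. Knockdown anti-Flag has no bar at CD34, both antibodies sit further into ITGA6 after knockdown than in control, and at ITGB1 the anti-Flag bar over the start is present in control only. One control anti-Flag peak and one knockdown anti-ETO peak, 34.9 and 36.0 kb into ITGA6, lie outside its panel.

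The 3 integrin genes were occupied at their starts in control. At ITGA4 (body chr2:181457205-181538940, plus strand) both antibodies called 2 neighbouring control peaks. The first crossed the start of the body, with 769 bp for anti-ETO (chr2:181456793-181457561) and 948 bp for anti-Flag (chr2:181456617-181457564). The second lay inside, with 564 bp for anti-ETO and 340 bp for anti-Flag. After knockdown, anti-ETO called 1 wide peak over both sites (chr2:181456640-181458581, 1942 bp), wider than 95.8% of its list. Anti-Flag called 326 bp before and at the start (chr2:181456887-181457212), which lay wholly inside its control peak and covered 34.4% of it. This anti-Flag call was lost with the wider 50% of each list and with the 4 lists cut to one length. The 2 antibodies therefore went in opposite directions at ITGA4, from 1333 to 1942 bp for anti-ETO and from 1288 to 326 bp for anti-Flag.

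At ITGA6 (body chr2:172427336-172506459, plus strand) the peak at the start lay further into the gene after knockdown for both antibodies. Anti-ETO called chr2:172427174-172427942 (769 bp) in control and chr2:172427598-172428302 (705 bp) after knockdown, with 345 bp in common. Anti-Flag called chr2:172427169-172427902 (734 bp) in control and chr2:172427620-172428261 (642 bp) after knockdown, with 283 bp in common. The peak centres were 392 bp apart for anti-ETO and 405 bp apart for anti-Flag, in the same direction. Among control and knockdown peaks of one antibody that overlap 1 to 1, 1.99% of the 10916 anti-ETO pairs and 1.99% of the 11806 anti-Flag pairs were at least that far apart, and the median distances were 64 and 70 bp. This distance was singled out after the positions were seen.

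The shift left the first ITGA6 promoter window without a call. In control 212 of its 300 bases lay under an anti-ETO peak and 217 under an anti-Flag peak, and after knockdown 0 did for either antibody. In the window of the second start all 300 bases lay under both control peaks, and after knockdown 38 lay under anti-ETO and 16 under anti-Flag. Deeper in the gene, each antibody had 1 further call that no other list held: control anti-Flag at 34.9 kb (366 bp) and knockdown anti-ETO at 36.0 kb (297 bp).

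At ITGB1 (body chr10:32900318-32958230, minus strand) the first promoter window kept its anti-ETO call and lost its anti-Flag call. Control anti-ETO called 1 peak of 1199 bp across the start (chr10:32957367-32958565), and knockdown anti-ETO called 2 peaks, one over the start that reached further upstream and one inside the gene (chr10:32958048-32959127, 1080 bp, and chr10:32957380-32957866, 487 bp). Control anti-Flag called 497 bp over the start and 489 bp inside the gene. After knockdown it called only the inner site (chr10:32957344-32957723, 380 bp). All 300 bases of the first promoter window were under both antibodies in control, against 300 for anti-ETO and 0 for anti-Flag after knockdown. The second annotated ITGB1 start, inside the gene, had no peak in any list.

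**Figure D3:**
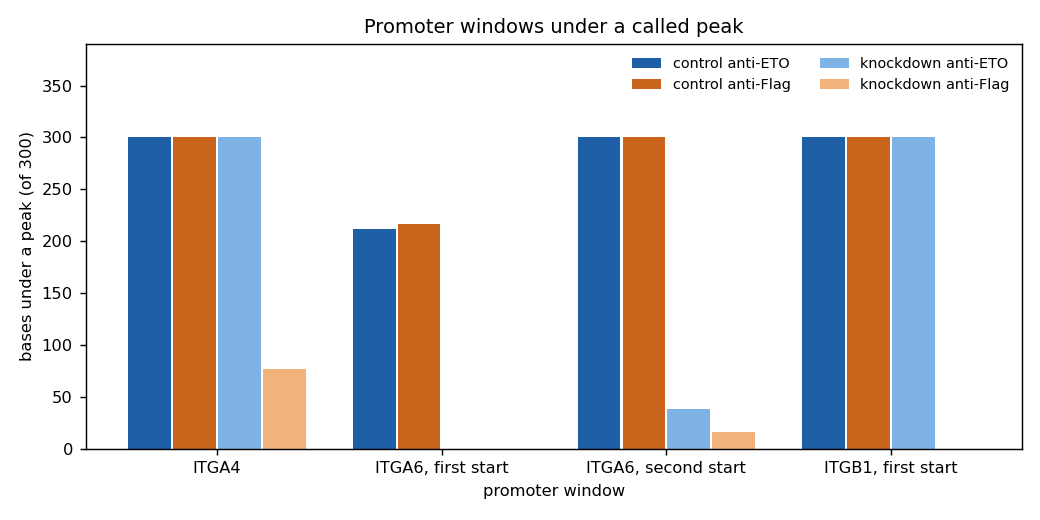
Bases of each 300-base promoter window (x axis) that lay under a called peak (y axis), by antibody and condition. All 4 windows have fewer bases under knockdown anti-Flag (77, 0, 16 and 0) than under control anti-Flag (300, 217, 300 and 300), and anti-ETO keeps all 300 at ITGA4 and ITGB1.

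Promoter windows of 3 of the 7 genes with one were touched by a peak in control anti-ETO, against 32.6% of the 15813 protein-coding genes with a window. The count was also 3 for control anti-Flag (32.3%) and knockdown anti-ETO (38.7%), and 2 for knockdown anti-Flag (23.8%). For dual-antibody peaks it was 3 in control (30.0%) and 2 after knockdown (26.5%). Shared peaks touched 3 (24.3%), and control-unique and KD-unique peaks 0 (6.82% and 3.43%). A smaller anti-Flag call on a promoter was common in these lists: of 2501 windows wholly under a control anti-Flag peak, 50.3% had fewer bases under a knockdown anti-Flag peak and 16.1% had 0. The ITGA4 window, the second ITGA6 window and the ITGB1 window were all among the 50.3%, and the ITGB1 window among the 16.1%. A loss for anti-ETO was less frequent among windows wholly under a control anti-ETO peak, at 14.0%, and of the 3 only the second ITGA6 window had one. A window touched by a shared peak but without a base under a knockdown dual-antibody peak made up 2.11% of the 4892 windows touched by a shared peak. The first ITGA6 window and the ITGB1 window were 2 such cases among the 4 windows of this group that a shared peak touched. The ITGA6 windows overlap each other, so the 4 are not separate cases. At the ITGB1 window only the anti-Flag call was lost. The reverse, no base under a control dual-antibody peak, was found at 0 of the 4 and at 3.07% of all.

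A set of 6 short motifs was searched in the promoter windows on both strands: TGTGGT (the RUNX core), CAGCTG and CAGGTG (E-boxes), CGGAAG (ETS), TGANTCA (AP-1) and AGATAA (the motif of GATA factors). The letters ACCACA, which are TGTGGT on the other strand, stood in ITGA6 at chr2:172427349-172427354, bases 264 to 269 of the first window and 14 to 19 of the second. This match lay under both control peaks and under neither knockdown peak. ITGA6 was the only one of the 7 genes with the RUNX letters, as a single match that both of its overlapping windows hold. Of the 22156 windows of protein-coding genes 11.3% held them, which is a share of windows and not of genes. Windows touched by a control dual-antibody peak held them about as often, at 10.6%. The ITGA6 windows also held CAGCTG at 2 places, CACCTG at 2 places and CTTCCG, the other strand of CGGAAG, at 1. Over the 22156 windows these motifs, in the same order and on either strand, were held by 18.0%, 20.0% and 23.7%. Windows touched by a control dual-antibody peak held them at 16.5%, 17.2% and 34.9%, so the ETS letters were more frequent there. The AP-1 and GATA letters were less frequent there, at 3.21% against 6.16% and 2.96% against 7.88%. The cause was not tested. The ITGA6 E-box match at chr2:172427154-172427159 lay under no single-antibody peak. PROM1 and CD44, which had no peak, held matches too, PROM1 for an E-box, ETS and AP-1 and CD44 for ETS. The matches were therefore not confined to occupied genes. The printed ITGA4 and ITGB1 windows held none of the 6 motifs. A match of letters is a description and not a binding site. The CD34 and SELPLG peaks lie outside the promoter windows, and their sequence was not used here.

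Summed over each gene, the called width fell for anti-Flag at all 5 occupied genes and rose for anti-ETO at 4. These sums were chosen for description after the positions were seen. For anti-Flag, CD34 went from 1048 bp in control to 0 bp after knockdown, SELPLG from 1006 to 593 bp, ITGA4 from 1288 to 326 bp, ITGA6 from 1100 to 642 bp and ITGB1 from 986 to 380 bp. The number of anti-Flag peaks was 2 at each gene in control, and 1 or, at CD34, 0 after knockdown. Fewer anti-Flag peaks after knockdown were found at all 5 genes, against 41.4% of genes with an anti-Flag peak in either condition, and more at 0, against 35.5%. Those shares include genes with a knockdown peak only, where the number could not fall, while all 5 genes had control peaks. For peak numbers the share over genes with a control peak was not taken. A shorter anti-Flag sum was also the more frequent case elsewhere, at 66.7% of the 10504 protein-coding genes with an anti-Flag peak in either condition and 69.9% of those with one in control, and a longer sum at 33.2%. The median difference was -606 bp over the 5 genes and -246 bp over all of these.

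For anti-ETO, SELPLG went from 1581 bp in control to 1788 bp after knockdown, ITGA4 from 1333 to 1942 bp, ITGA6 from 769 to 1002 bp and ITGB1 from 1199 to 1567 bp. CD34 went the other way, from 446 to 364 bp. Of the 11118 protein-coding genes with an anti-ETO peak, 85.2% had a longer sum after knockdown and 14.4% a shorter one. By number, anti-ETO peaks were more after knockdown at 2 of the 5 genes (58.2% of genes) and fewer at 1, ITGA4 (9.07%). A longer anti-ETO sum with a shorter anti-Flag sum was found at 4 of the 5, against 54.3% of genes with peaks of both antibodies and 55.2% of those with both in control. With all 4 lists cut by width to the length of the shortest, which drops the narrower peaks of the 3 longer lists, the sum was longer at 2 of the 5 genes (ITGA4 and ITGB1) and shorter at 3, against 73.0% and 26.6% of genes. The anti-Flag sum was shorter at all 5 in that setting too, against 69.1%, and longer at 0, against 30.9%.

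**Figure D4:**
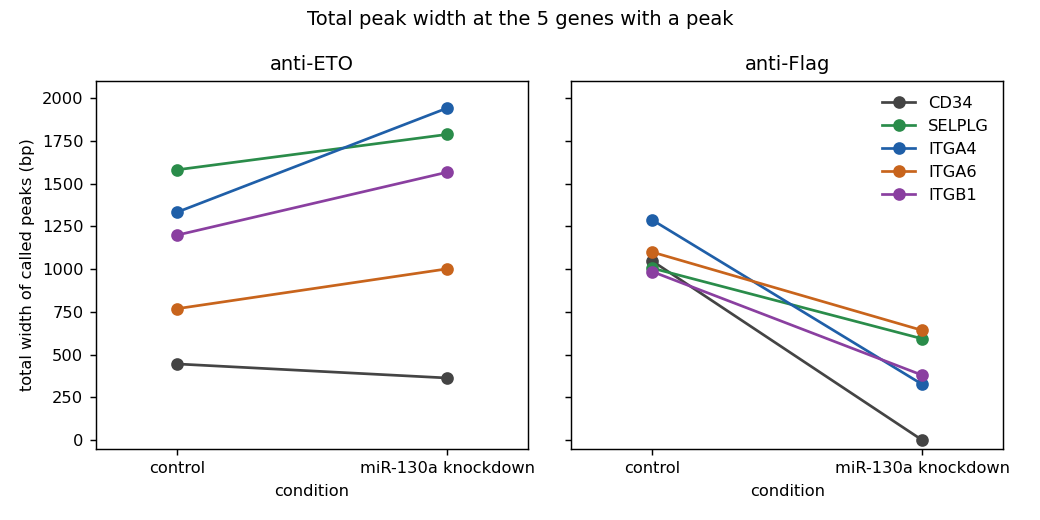
Total width of called peaks in bp (y axis) at each of the 5 genes with a peak, in control and after miR-130a knockdown, for anti-ETO (left) and anti-Flag (right); each point is 1 list, with no replicates. All 5 anti-Flag lines fall, and the anti-ETO lines rise except that of CD34.

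Merging the 4 lists gave 13 separate regions at the 5 genes. Of these, 4 were called in all 4 lists, 1 each at SELPLG, ITGA4, ITGA6 and ITGB1, and the CD34 site was the 1 region called in all lists but knockdown anti-Flag, as 6.48% of regions in the series were. Of the rest, 2 were called in 2 lists and 6 in 1 list, which was knockdown anti-ETO for 3, control anti-Flag for 2 and control anti-ETO for 1. Over the series 44.3% of 35622 merged regions were called in 1 list only and 24.8% in all 4. An anti-Flag peak overlapped 7 of the 9 control anti-ETO peaks (background 89.6%) and 4 of the 10 knockdown ones (63.2%). Of the control anti-Flag peaks, 4 of 10 overlapped a knockdown anti-Flag peak (62.1%), against 7 of 9 control anti-ETO peaks that overlapped a knockdown anti-ETO peak (91.0%). Read the other way, 7 of 10 knockdown anti-ETO peaks overlapped a control one (55.7%), and so did 4 of 4 knockdown anti-Flag peaks (59.2%). Peaks at one gene are not independent, and these counts compare lists and not libraries.

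The 4 genes without a peak differed in how far the nearest call lay. At CXCR4 (chr2:136114349-136118149) an anti-ETO peak lay 17.8 kb away after knockdown (597 bp) and 18.2 kb away in control (251 bp), with CXCR4 as the nearest protein-coding gene, while the nearest anti-Flag peaks lay 106 kb or more away. At CD44 (chr11:35139171-35232402) all 4 lists had a peak between 55.2 and 56.2 kb from the body, and CD44 was again the nearest protein-coding gene. The nearest peak to THY1 (chr11:119415476-119424985) was 93.5 kb away, nearer to MCAM. The nearest peak to PROM1 (chr4:15968228-16084023), a gene with 4 annotated starts and a body of 116 kb, was 142 kb away, inside TAPT1. Over all protein-coding genes, 41.6% had no peak within 10 kb in any single-antibody list. The absence of a call shows only that none passed the authors' threshold, at a depth that is not given.

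Other surface and adhesion genes were read in the same way, in 5 lists that together held 95 genes, 2 of which stand in 2 lists. Dual-antibody peaks lay at 38 of the 95 in control and at 39 after knockdown, 40.0% and 41.1%. Control-unique peaks were found at 14 genes and KD-unique peaks at 22, or 14.7% and 23.2%. Over all protein-coding genes the shares were 43.8% and 39.4% for dual-antibody peaks, and 16.9% and 18.4% for control-unique and KD-unique peaks, and the KD-unique list is the longer one (4617 peaks against 3059). With lists of 10 to 26 genes and no test, the counts below do not set a list apart.

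Of the 95 genes, 5 shared the on and off pattern of CD34, with peaks in every single-antibody list except knockdown anti-Flag, which is 5.26% beside the 6.45% of all protein-coding genes. They were PODXL, a sialomucin of the CD34 family, with 2 control-unique peaks, and PROCR, CD96, IL1RAP and MCAM with 1 each. They are named for this pattern after it was seen. No listed gene had the same number of peaks as CD34, SELPLG, ITGA4, ITGA6 or ITGB1 in all 4 single-antibody lists.

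Among the 23 other integrin genes, KD-unique peaks were found at 7 (30.4%, beside 18.4% of all protein-coding genes) and control-unique peaks at 1 (4.35%, beside 16.9%). ITGB2, the beta chain of the leukocyte integrins, had 5 KD-unique peaks, and ITGAL and ITGB7 had 2 each. ITGA2B, the platelet integrin chain, had 1, and ITGAM had 1 KD-unique and 2 control-unique peaks. ITGA4, ITGA6 and ITGB1 had none of either kind.

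Genes that build selectin ligands on PSGL-1 were occupied at 7 of 10 in control and 6 of 10 after knockdown by dual-antibody peaks (70.0% and 60.0%, beside 43.8% and 39.4% of all protein-coding genes). GCNT1, which branches the O-glycans, and C1GALT1C1, the chaperone of the core enzyme, had 1 control-unique peak each, and TPST2, a tyrosine sulfotransferase, had 1 KD-unique peak.

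Among 24 partners and relatives, KD-unique peaks lay at 8 genes (33.3%, beside 18.4% of all protein-coding genes) and control-unique peaks at 4 (16.7%, beside 16.9%). FERMT3, the kindlin of blood cells that activates integrins, had 4 KD-unique peaks, and LAMA5, a laminin chain, had 2. MSN (moesin), which ties CD44 and PSGL-1 to actin, had 3 control-unique peaks, and CD82, a tetraspanin, had 1 of each kind. Of 26 other stem and progenitor surface genes, 5 had KD-unique peaks (19.2%) and 4 had control-unique peaks (15.4%). ENG (endoglin) had 2 KD-unique peaks, ESAM had 1, CD48 had 1 of each kind, and CD96 and IL1RAP had 1 control-unique peak. Of 14 junction and immunoglobulin adhesion genes, 3 (21.4%) had KD-unique peaks, CD2, ICAM1 and ICAM2 with 1 each. Control-unique peaks were also found at 3, among them CD58 with 2 and F11R with 1.

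**Figure D5:**
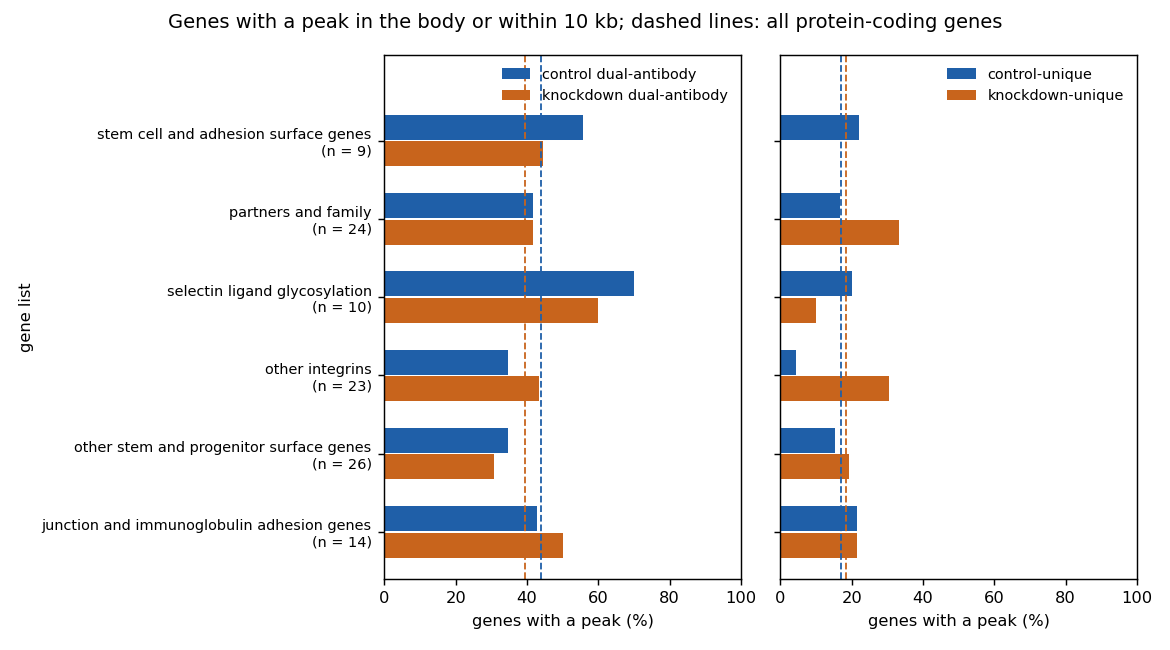
Share of the genes of each list with a peak in the body or within 10 kb (bars, %), for dual-antibody peaks (left) and condition-unique peaks (right), with the share over all 19974 protein-coding genes as dashed lines. The 9 stem cell and adhesion surface genes reach 55.6% and 44.4% for dual-antibody peaks in control and after knockdown, beside backgrounds of 43.8% and 39.4%, and have control-unique peaks at 22.2% and KD-unique peaks at 0.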

How the data were processed

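Peaks of 18 CUT&RUN libraries (6 groups of 3, from the sample titles) were analysed as 9 lists deposited by the authors, each with chromosome, start and end and no other value, so their depth is unknown. Per the submitters' processing notes, fastp 0.19.5, Bowtie2 2.3.5, MACS2 2.2.5 and HOMER 4.8 were used, with the builds hg38 and sacCer3. The peak threshold, the use of the IgG libraries and the handling of replicates are not given in the sources used here. The lists differ in length, and this alone can change how many genes hold a peak.

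Positions were written with starts counted from 1 and joined to RefSeq gene bodies and promoter windows of GRCh38.p14, with a flank of 10 kb and an overlap of at least 1 bp. Python 3.11.15, numpy 2.4.6, pandas 2.3.3 and matplotlib 3.10.9 were used, and bedtools 2.31.1 gave the same number of peaks for each of the 9 lists. The interval functions were tested on 2000 simulated intervals, where 800 of 800 planted overlaps were recovered. Alternatives covered the flank, the overlap rule, peak width, list length, gene assignment and gene length.

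The genes and gene lists were chosen with earlier results of these data known. All 9 genes are described. Of the other lists, genes with a control-unique or KD-unique peak are named, up to 5 a list by number of such peaks. Genes outside this rule are those named for the pattern of CD34 after it was seen, or as the gene nearest to a peak.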

Additional observations from a re-analysis of the deposited data

How the results depend on the processing

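Of the recomputed counts over the group and its peaks, 90 stayed within 1.5 times the reported count and 8 did not. The peak number of single genes moved further than that 7 times without a flank, 13 times with 50 kb, 17 times with the wider 50% of each list and 6 times with lists of one length. Among these, SELPLG lost its shared peak without a flank and with the wider 50%, its knockdown dual-antibody and anti-Flag peaks without a flank, and its control-unique peak with the wider 50%. ITGA6 and ITGB1 lost their knockdown dual-antibody peaks with the wider 50%, and CXCR4 gained 1 anti-ETO peak in each condition with 50 kb. With the wider 50% of each list, 2 genes instead of 4 had a knockdown dual-antibody peak and 1 instead of 2 a control-unique peak. With the 4 lists at the length of the shortest, 2 genes had a longer anti-ETO width after knockdown and 3 a shorter one, and with a flank of 0 or 2 kb 2 had a shorter one. With an overlap of 50% of both peaks, 3 control anti-ETO and 2 control anti-Flag peaks had a knockdown counterpart. The difference in anti-ETO width, knockdown minus control, changed sign at SELPLG, to -52 bp without a flank, -16 bp with 2 kb and -465 bp with lists of one length. It changed sign at ITGA6, to -64 bp, with the wider 50% of each list and with lists of one length. The anti-Flag difference kept its sign at all 5 genes in the 7 alternatives, which for these width sums were chosen after the data were seen. The cause was not tested.

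The share of protein-coding genes with a peak varied with gene length. For genes under 20 kb, of 20 to 100 kb and over 100 kb it was 45.2%, 51.3% and 45.4% for control anti-ETO, 49.1%, 53.4% and 45.8% for control anti-Flag, and 51.8%, 58.4% and 48.6% for knockdown anti-ETO. It was 44.2%, 43.9% and 33.3% for knockdown anti-Flag, 42.4%, 46.8% and 41.0% for control dual-antibody peaks, and 40.9%, 41.2% and 31.7% for knockdown dual-antibody peaks. It was 35.8%, 36.7% and 29.4% for shared peaks, and 14.7%, 18.3% and 19.7% for control-unique peaks. For KD-unique peaks it was 21.7% under 20 kb and 10.4% over 100 kb. No paired analysis was possible because the lists hold no values per library, and for the same reason no library could be left out.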
